A study of Drosophila melanogaster with 2 samples.

Results

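The genes described here are 9 protein-coding genes of Drosophila melanogaster, sbb, Tlk, ush, kirre, CHES-1-like, CG1677, Btk, CG43389 and Mef2, that stand at or near the top of all genes by their number of binding summits of the fusion protein dsf-eGFP. A summit is the position of strongest signal in a region, and it was assigned to a gene when it lay inside the gene or within 2 kb upstream of it. The members were chosen by these counts in the joint list of regions, so the counts, places and signal values of the same summits are given as a description, with no test. They are 9 of 13945 protein-coding genes on the chromosome arms and held 47 of the 1708 nuclear summits (2.75%). Of all protein-coding genes, 23 (0.165%) held 4 or more summits. The members comprise all 6 genes with 5 or more and 3 of the 17 genes with 4. Their working name is regulatory genes, which the annotation does not bear out for all: CG1677 and CG43389 have no named product, and kirre encodes a cell adhesion protein.

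The data are chromatin immunoprecipitation followed by sequencing, in which DNA bound to a protein is pulled down with an antibody and sequenced. The tagged protein was dsf with green fluorescent protein at its C-terminal end, made in a stable transgenic line and pulled down through the tag from whole wandering larvae of the third instar, males and females pooled. There was 1 group of 2 biological replicates, numbered 3 and 4 in the labels, and both carry the transgene. A control experiment is named in the labels but not analysed here. A summit is taken as a position in the authors' list, and how a control entered that list is not known. Whole larvae mix all tissues, so no summit can be assigned to a cell type. Each region carries a signal value deposited by the authors, which has no unit and is compared here only within a list, where rank 1 is the strongest region. Values called joint are those of the joint list.

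The gene dsf (dissatisfaction) encodes a nuclear receptor with no known ligand, a relative of Tailless, and is known from courtship and mating behaviour and the neurons that serve them. Receptors of this kind mostly act as repressors, and the core of their DNA site is known as AAGTCA. The corepressor Brakeless, the product of sbb, is known to work with Tailless in the embryo. Developmental regulators often have long introns and several promoters, and such introns can hold enhancers that act on the host gene or on a neighbour, so that position alone does not assign a summit to a target.

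The windows below show the DNA at the strongest summit of each member on X, 2L and 3L, together with the other summits on these arms that hold AAGTCA and the near neighbour of the strongest summit of CG43389. Summits are numbered along each gene in the direction of transcription. Each window covers 101 bases of the plus strand, 50 on either side of the summit, from the RefSeq sequence of release 6 (dm6). Capitals mark a match on either strand to any of 5 words that were searched. The first word is AAGTCA, with reverse complement TGACTT. The second is the TATA-box word TATAAA, which reads TTTATA on the other strand. The third is TATCGA, part of the DNA replication-related element, with reverse complement TCGATA. The fourth is GAGAGA, bound by GAGA factor, with reverse complement TCTCTC. The fifth is the E-box CAGCTG, which is its own reverse complement.
Tlk summit 1 at chrX:3742182-3742282: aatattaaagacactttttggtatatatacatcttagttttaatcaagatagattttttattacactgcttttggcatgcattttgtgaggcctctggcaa
Tlk summit 2 at chrX:3743516-3743616: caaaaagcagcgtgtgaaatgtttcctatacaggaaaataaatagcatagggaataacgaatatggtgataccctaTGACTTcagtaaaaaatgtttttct
Btk summit 2 at chr2L:8292524-8292624: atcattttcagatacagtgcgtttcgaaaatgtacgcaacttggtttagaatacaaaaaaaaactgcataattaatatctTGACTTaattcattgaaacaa
Btk summit 4 at chr2L:8277809-8277909: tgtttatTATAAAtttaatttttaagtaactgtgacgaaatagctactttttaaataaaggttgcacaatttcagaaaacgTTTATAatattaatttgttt
ush summit 3 at chr2L:481054-481154: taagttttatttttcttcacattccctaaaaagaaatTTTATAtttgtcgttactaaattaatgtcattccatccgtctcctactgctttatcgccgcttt
kirre summit 5 at chrX:3053427-3053527: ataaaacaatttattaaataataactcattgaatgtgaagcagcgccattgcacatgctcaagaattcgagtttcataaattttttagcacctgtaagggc
CHES-1-like summit 1 at chrX:7706914-7707014: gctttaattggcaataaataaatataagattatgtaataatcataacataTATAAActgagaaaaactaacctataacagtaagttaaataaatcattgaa
CG1677 summit 3 at chrX:7302461-7302561: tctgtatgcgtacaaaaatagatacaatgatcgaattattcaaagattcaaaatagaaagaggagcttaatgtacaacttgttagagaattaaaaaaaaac
CG43389 summit 1 at chr3L:3247625-3247725: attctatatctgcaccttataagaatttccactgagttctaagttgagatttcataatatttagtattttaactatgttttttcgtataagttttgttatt
CG43389 summit 2 at chr3L:3247824-3247924: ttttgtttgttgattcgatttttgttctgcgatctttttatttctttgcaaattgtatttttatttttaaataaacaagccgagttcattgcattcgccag

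Most of these windows hold none of the words or only the TATA-box word, and none of the strongest summits shown has AAGTCA. That core lay within 50 bp of 3 of the 47 summits (6.38%), beside 90 of all 1708 nuclear summits (5.27%). All 3 were over 1 kb from any start site, which makes 3 of the 30 such summits of the members, beside 26 of all 465 (5.59%). The 3 were summit 3 of sbb and the summits numbered 2 in Tlk and Btk. In replicates 3 and 4, that of sbb ranked 265 and 532, and that of Btk 592 and 3564. That of Tlk ranked 4652 in replicate 4 and had no match within 100 bp in replicate 3. TATAAA lay at 13 of the 47 (27.7%), in every member but Mef2, and at 23.0% of all nuclear summits. TATCGA lay at 1 of the 47 (2.13%), summit 2 of Mef2, beside 10.1% of all summits. Over 1 kb from any start site it lay at 0 of 30, where a count of 0 allows up to 3 of 30, beside 4.09% of all such summits. GAGAGA lay at 1 (2.13%), summit 6 of Tlk, beside 3.34% of all. CAGCTG was at 0 of the 47, where a count of 0 allows up to 6.38%, and at 3.40% of all. The windows were rich in A and T, with a median GC content of 29.7% at the 47 summits and 31.7% at all nuclear summits. A match is a match of letters and was not tested as a binding site.

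**Figure D1:**
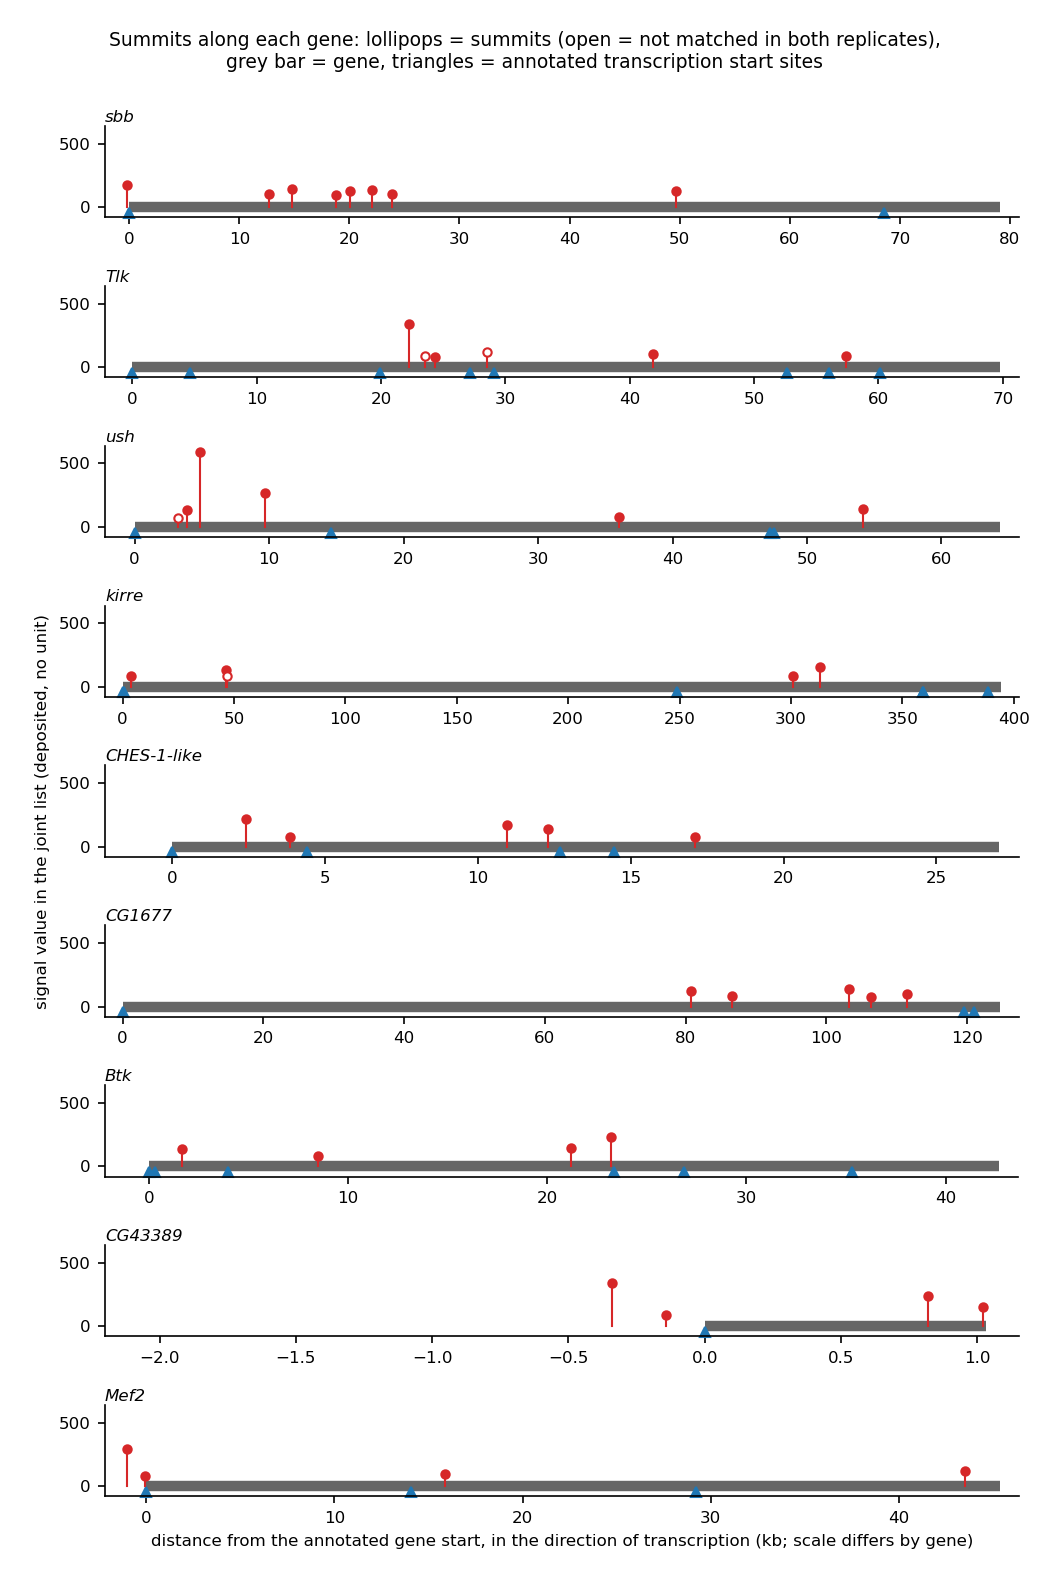
Position of each of the 47 summits along the 9 genes: the x axis is the distance from the annotated gene start in kb, on a scale of its own for each gene, and the y axis is the deposited signal value in the joint list. Filled points were matched in both replicates, 4 open points were not, grey bars are genes and triangles are annotated transcription start sites; the tallest point is summit 3 of ush at 587.2, and 6 summits of sbb crowd into 1 stretch.

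Of the transcriptional regulators, ush had the strongest summit. The gene ush (FBgn0003963, 2L 476220 to 540560, plus strand) encodes U-shaped, a zinc finger protein that binds GATA factors and is known from blood cell, heart and bristle development. It held 6 summits over 51001 bp, all in introns. Summit 3 was the strongest of all 47, with a signal value of 587.2 jointly (rank 19), 272.2 in replicate 3 (rank 9) and 315.0 in replicate 4 (rank 25). It lay 4884 bp inside ush and 1416 bp upstream of the start of cbt, which encodes the zinc finger factor Cabut and is nested in ush on the opposite strand. Summit 1 lay 269 bp downstream of the cbt start and summit 2 lay 445 bp upstream of it, so that the first 3 summits of ush were also within cbt or 2 kb upstream of it. Summit 4 followed in the same intron, with signal values of 264.4 jointly, 100.1 in replicate 3 and 164.2 in replicate 4. It lay 4953 bp upstream of an internal ush start site, a position shared with the start of a non-coding RNA gene, lncRNA:CR46258. Both strong summits were therefore high in both replicates. Summit 6 (signal value 140.3) ranked 712 in replicate 3 and 350 in replicate 4, and summit 2 (129.6) ranked 538 and 1200. The remaining summits were weak in 1 replicate. Summit 5 (80.7) ranked 2745 in replicate 3 and 1089 in replicate 4. Summit 1 (73.7, rank 1724 in the joint list) had its nearest replicate 3 region 548 bp away and ranked 876 in replicate 4. None of the 4 start sites of ush had a summit within 1 kb.

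Mef2 (FBgn0011656, 2R 9913496 to 9958858, minus strand) encodes the MADS-box factor required for muscle differentiation. Of its 4 summits, 2 lay upstream of the gene and 2 in exons outside the coding sequence. Summit 1 was the strongest, with signal values of 289.7 jointly (rank 81), 145.5 in replicate 3 (rank 57) and 145.1 in replicate 4 (rank 114). It lay 1027 bp upstream of the first Mef2 start site, but 153 bp upstream of the start of Pdrg1 and inside Pal1, both neighbouring genes. The summit nearest to the Mef2 start itself was thus a different and weaker one. Summit 2, 88 bp upstream of that start, reached a signal value of 79.0 (rank 1514) and ranked 1078 in replicate 3 and 3407 in replicate 4. Summit 3 (98.7) lay 1761 bp past the second start site, in the first exon of the transcript that begins there, and ranked 557 and 1652. Summit 4 (120.5) lay 43507 bp from the gene start and ranked 741 and 504. The third start site, used by 8 of the 11 annotated transcripts, had no summit closer than 13388 bp. Counting each transcript with its own 2 kb upstream, 1 transcript held all 4 summits and 7 held none.

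CHES-1-like (FBgn0029504, X 7682338 to 7709385, minus strand) encodes a forkhead transcription factor known from the division and fate of heart progenitors in the embryo. Its 5 summits lay in 27.0 kb, all in introns and all matched in both replicates, as 2 pairs and a single summit. Summits 1 and 2 were 1428 bp apart and lay 2001 and 573 bp upstream of the second of its 4 start sites. Summits 3 and 4 were 1334 bp apart and lay 1720 and 386 bp upstream of the third. In each pair the summit farther from the start site was the stronger. Summit 1 had signal values of 217.9 jointly (rank 155), 83.6 in replicate 3 and 127.7 in replicate 4, and it also lay 811 bp upstream of lncRNA:CR43287. Summit 3 had 170.3, 61.6 and 110.6 in the same order, and summit 4 had 139.2, 60.0 and 79.1. These 3 ranked above the other 2 in both replicates. Summit 2 (79.7) ranked 989 in replicate 3 and 2303 in replicate 4, and summit 5 (78.9) ranked 1147 and 4142. The first start site, at the 5′ end of the gene, was 2421 bp from the nearest summit.

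The corepressor gene sbb (FBgn0285917, 2R 18278198 to 18357296, minus strand) held 8 summits, more than any other protein-coding gene. All 8 were matched in both replicates. The strongest, summit 1, lay 166 bp upstream of the start site used by 5 of its 7 transcripts. It had signal values of 178.5 jointly (rank 264), 63.1 in replicate 3 (rank 388) and 117.4 in replicate 4 (rank 204). Summits 2 to 7 formed a cluster 12741 to 23896 bp downstream of that start, within 1 intron and within 11155 bp, where no other gene is annotated. Their signal values ran from 95.7 at summit 4 to 144.8 at summit 3. Summit 3 had 73.0 in replicate 3 and 80.7 in replicate 4 (ranks 265 and 532), and summit 5 (129.0 in the joint list) had 52.3 and 76.1 (ranks 593 and 617). In the joint list the cluster was thus fairly even in strength, with no summit standing far above the others. In replicate 3 its signal values ran from 29.7 at summit 6 to 73.0 at summit 3. In replicate 4 they ran from 32.4 at summit 4 to 102.2 at summit 6. Summits 4 and 6 were uneven between replicates. Summit 4 ranked 1284 in replicate 3 and 3738 in replicate 4, and summit 6 (132.1) ranked 1776 and 287. Summit 8 (130.3) stood alone in the same intron as the cluster, 25789 bp past summit 7. It lay 3634 bp upstream of CG14505 and ranked 560 and 641. The second start site, used by 2 transcripts, was 18843 bp from the nearest summit, and those 2 transcripts held none.

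Of the kinase genes, Tlk (FBgn0283657, X 3720007 to 3789770, plus strand) encodes the Tousled-like kinase, which phosphorylates the histone chaperone Asf1. It held 6 summits, all in introns. Summit 1 stood out, with signal values of 335.9 jointly (rank 64), 170.1 in replicate 3 (rank 39) and 166.8 in replicate 4 (rank 81). It lay 2335 bp past the third of 8 start sites. Summit 2 (86.7) followed 1334 bp further on and summit 3 (82.6) another 760 bp on, both far weaker. Summit 2 ranked 4652 in replicate 4, and summit 3 ranked 1420 in replicate 3 and 1796 in replicate 4. Summit 4 (116.0) lay 530 bp upstream of the fifth start site and ranked 677 in replicate 4. Summits 2 and 4 were not matched in replicate 3, where the nearest regions lay 107 and 102 bp away, just past the 100 bp allowed for a match. Summit 5 (104.8) lay 10803 bp upstream of the sixth start site and ranked 1474 and 745. Summit 6 (85.6) lay inside the microRNA gene mir-4962, 24 bp from its annotated start, and ranked 2240 and 1119. Thus 1 of the 8 start sites had a summit within 1 kb, and the start at the 5′ end of the gene, used by 6 of 14 transcripts, was 22225 bp from the nearest summit.

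Btk (FBgn0003502, 2L 8258373 to 8301079, minus strand) encodes a cytoplasmic tyrosine kinase of the Tec family, known from the growth of ring canals in the female germline. It held 4 summits, all in introns and all matched in both replicates. The strongest, summit 4, had signal values of 235.3 jointly (rank 132), 72.4 in replicate 3 (rank 271) and 163.5 in replicate 4 (rank 84). It lay 157 bp upstream of an internal start site used by 2 of the 8 transcripts, and summit 3 lay 2192 bp upstream of the same site. Summit 3 had 145.9, 48.8 and 100.6 in the same order. The strongest signal of Btk was thus at an internal promoter and not at the 5′ end, where summit 1 (138.6) lay 1308 bp past the second start site and ranked 504 and 533. Summit 2 (85.5) lay 1847 bp from a lysine tRNA gene and differed most between replicates, with rank 592 in replicate 3 and 3564 in replicate 4.

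The adhesion gene kirre (FBgn0028369, X 2740384 to 3134532, plus strand) encodes an immunoglobulin-type membrane protein of muscle founder cells that attracts myoblasts for fusion. At 394 kb it is the fifth-longest protein-coding gene, and neighbouring summits lay 683 to 253792 bp apart. None of its 6 start sites had a summit within 1 kb, and for all 5 summits the nearest start site belonged to another gene. Summit 1 (88.9) lay 133 bp upstream of Syx4, a syntaxin gene on the opposite strand that overlaps the 5′ end of kirre, and ranked 1018 and 1292. Summits 2 (135.3) and 3 (81.4) lay inside CG32795, which is nested in kirre. Summit 2 ranked 270 and 943, while summit 3 ranked 1120 in replicate 3 and had its nearest replicate 4 region 124 bp away. Summits 4 and 5 were in introns 26274 and 14005 bp from the start of CG4116, far from any other start site. Summit 5 was the strongest, with signal values of 157.3 jointly (rank 365), 77.0 in replicate 3 (rank 241) and 86.3 in replicate 4 (rank 446). Summit 4 (86.0) ranked 1265 and 1766.

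CG1677 (FBgn0029941, X 7281089 to 7405797, minus strand) spans 125 kb through 1 of its 4 annotated transcripts. All 5 summits lay in 1 intron of that transcript, and the other 3 transcripts, which start near the 3′ end of the gene, held none. The same intron contains other genes, and each summit had one of them as the nearest start site. All 5 summits also lay inside the same non-coding RNA gene. Summit 1 (119.2) lay 870 bp past the start of Dok, which encodes an adaptor protein, and ranked 754 and 756. Summit 2 (83.0) lay inside Atg5, an autophagy gene, and ranked 1582 and 1603. Summit 3 was the strongest, with signal values of 140.7 jointly (rank 460), 37.8 in replicate 3 (rank 1098) and 96.1 in replicate 4 (rank 341). It lay 5428 bp upstream of brk, which encodes Brinker, a repressor of targets of the growth factor Dpp. Summits 4 (75.3) and 5 (100.3) lay 8204 and 3025 bp upstream of unc-119. Summit 4 ranked 1663 and 3647, and summit 5 ranked 1416 and 925. The closest that any summit came to a CG1677 start site was 8128 bp, so the count of CG1677 rests on the span of a single transcript.

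CG43389 (FBgn0263246, 3L 3248015 to 3249044, plus strand) is the exception in size, with 1.03 kb and a single transcript. Its 4 summits lay within 1360 bp, and each was within 1 kb of a start site. Summits 1 and 2 lay 340 and 141 bp upstream of its start. Summits 3 and 4 lay in its last exon outside the coding sequence, 508 and 305 bp upstream of lncRNA:CR43626. Summit 1 had signal values of 340.6 jointly (rank 61), 152.2 in replicate 3 (rank 53) and 183.6 in replicate 4 (rank 68). Summit 3 had 235.4, 82.4 and 155.2 in the same order. Its strong summits thus lay upstream of the gene and near its 3′ end. Summit 4 (149.8) ranked 502 in replicate 3 and 3716 in replicate 4, and summit 2 (92.2) ranked 1391 and 1286. A further pair of summits, with signal values of 88.3 and 94.8, lay 2297 and 3027 bp past the end of the gene, where mir-282 has the nearest start site. The gap between summits 1 and 2 was 199 bp, the smallest between any neighbours on the arms, and that between summits 3 and 4 was 203 bp. The median distance from a summit to the end of its region was 201 bp in the joint list, and the regions of both pairs overlap. Whether each pair is 1 binding event or 2 was not tested. When summits within 500 bp were counted once, CG43389 held 2.

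Because long genes have more room for summits, the counts were set beside gene length. The windows of the 9 genes covered 866.2 kb, or 0.647% of the 133.9 Mb of the arms, and held 0.543 summits per 10 kb, against 0.128 per 10 kb over the arms. The density was highest in CG43389, at 13.2 per 10 kb, which is the highest of all protein-coding genes. That value rests on 4 summits in 2 pairs with overlapping regions. The count fell to 2 when summits within 500 bp were counted once, and to 2 without the 2 kb upstream. The density was lowest in kirre, at 0.126, close to the mean of the arms. Between these, CHES-1-like held 1.72 per 10 kb, sbb 0.986, ush 0.904, Btk 0.895, Mef2 0.845, Tlk 0.836 and CG1677 0.395. All members but CG43389 were less dense than the median of 1.93 among the 2092 protein-coding genes with a summit, of which 1756 held 1 summit and had a median length of 3.12 kb. By density, then, the order of the members is not that of their counts.

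Against genes within 20% of their own length, most members still stood high, which is part of how they were chosen. Each group leaves out only the gene itself, so it can hold other members. None of the 117 genes near the length of sbb held as many summits, the most being 6, in Tlk and ush. The same was so for the 337 genes near the length of CHES-1-like and the 60 near that of CG1677, where the most was 4 in each. Among 139 genes near the length of Tlk, 2 held as many, and among 156 near that of ush 1 did. For Btk it was 2 of 262, Mef2 and Raf, and for Mef2 3 of 248, Btk, Raf and tkv. Of 1883 genes near the length of CG43389, 182 held a summit and none held more than 3. Only 3 genes were near the length of kirre, and they held 0 summits. The median was 0 in each of these groups.

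**Figure D2:**
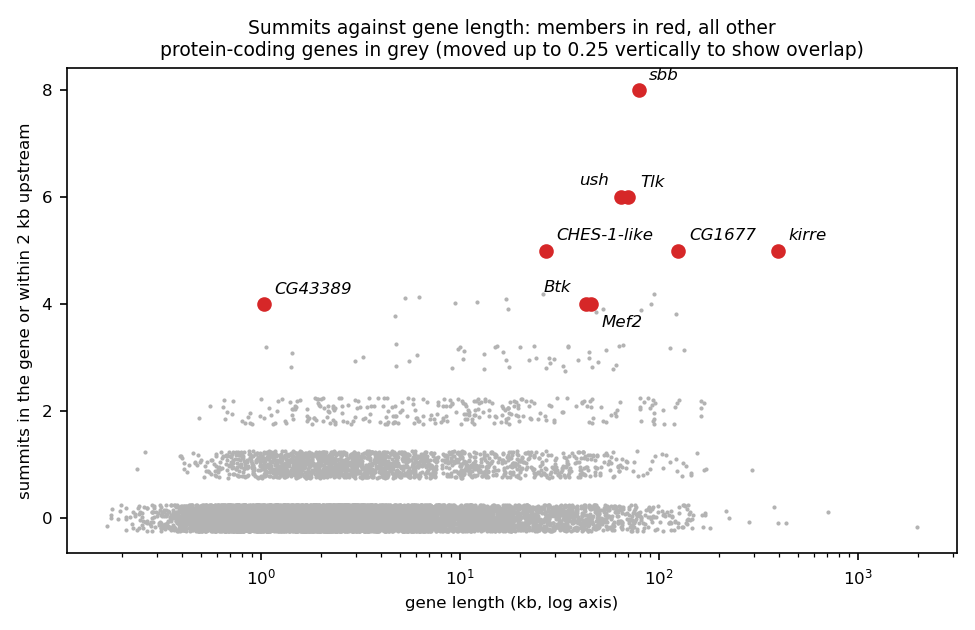
Number of summits in each protein-coding gene or within 2 kb upstream (y axis) against gene length in kb on a log axis, with the 9 members in red and the other genes in grey. CG43389 stands far to the left of the other members at 1.03 kb with 4 summits, and kirre far to the right at 394 kb with 5.

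Most summits of these genes lay away from promoters. Of the 47, 17 (36.2%, exact 95% interval 22.7 to 51.5) were within 1 kb of a transcription start site of any gene, against 72.8% of all nuclear summits. Only 9 (19.1%, interval 9.15 to 33.3) were within 1 kb of a start site of the member itself. The intervals cover counting error only, and summits of one gene are not independent. By place in the member, 38 summits lay in introns, 5 upstream and 4 in exons outside the coding sequence, with 0 in coding sequence. For 24 the nearest start site belonged to another gene, counting the tie at summit 4 of ush, and 10 lay inside another gene. The median distance to a start site was 2192 bp, against 204.5 bp over all nuclear summits. Over 10 kb from any start site lay 10 of the 47 (21.3%), against 59 of all (3.45%). The cluster in the sbb intron supplied 6 of these 10, kirre 2, and Tlk and ush 1 each.

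The same share was taken in other long genes. In 736 other protein-coding genes at least as long as CHES-1-like, 166 of 319 summits (52.0%, interval 46.4 to 57.6) were within 1 kb of a start site, against 13 of 43 (30.2%, interval 17.2 to 46.1) in the 8 members other than CG43389. These are descriptions, since the members were picked for their counts. Here too the intervals cover counting error only, and summits of the same gene are not independent. Of the 37 distinct start sites of the 9 genes, 7 (18.9%) had a summit within 1 kb, against 11.5% of 19253 protein-coding start sites. They were 2 sites of CHES-1-like and 1 each of sbb, Tlk, Btk, CG43389 and Mef2, with none in ush, kirre or CG1677.

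**Figure D3:**
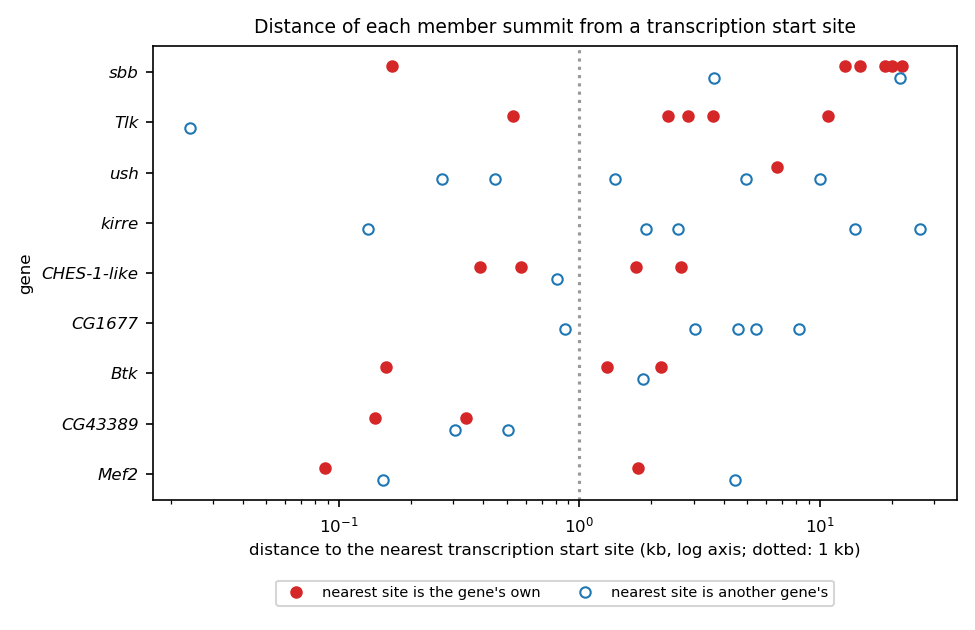
Distance in kb, on a log axis, from each of the 47 summits to the nearest transcription start site, with 1 row per gene. Filled red points have a start site of the gene itself nearest, open blue points that of another gene; 17 points lie left of the dotted line at 1 kb, and all points of kirre and CG1677 are open.

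Spacing along the genes was uneven. Of the 38 gaps between neighbouring summits of a member, 14 (36.8%) were at most 2 kb, against 10.3% of 1702 gaps on the arms. Genes picked for many summits favour short gaps, so this is a description. The median gap was 4492 bp over the members, and ran from 203.0 bp in CG43389 to 27396 bp in kirre. Only 1 stretch of 2 kb starting at a summit held 4 summits, and it was at CG43389. Stretches of 12 kb starting at a summit held at most 6, at 3 places, which were the sbb intron, CG43389 with the pair beyond it, and the neighbourhood of l(2)k01209. Closer groups elsewhere were the 3 summits around the start of cbt in ush, the first 3 of Tlk, and the pairs of CHES-1-like.

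Most summits of the members were found again in each replicate's own list. Within 100 bp, 44 of the 47 were matched in replicate 3 and 46 in replicate 4. Both replicates matched 43 (91.5%, interval 79.6 to 97.6), against 86.2% of all nuclear summits. The 4 without a match were summits 2 and 4 of Tlk and summit 1 of ush, all in replicate 3, and summit 3 of kirre in replicate 4. Among the 1731 strongest regions of both replicates, as many as the joint list holds, were 31 (66.0%, interval 50.7 to 79.1), against 56.6% of all. Replicate data went into the joint list, so these shares are in part built in. Of the 30 summits over 1 kb from any start site, 28 (93.3%) were matched in both replicates, and so were 93.8% of all 465 such summits. Across the 43 matched summits the ranks in the replicates had a Spearman's rho of 0.639, and 0.562 across all 1473 matched nuclear summits. These points are regions of the same pair of libraries and are not independent. The median signal value in the joint list was 120.5 for the 47 and 104.0 for all nuclear summits.

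**Figure D4:**
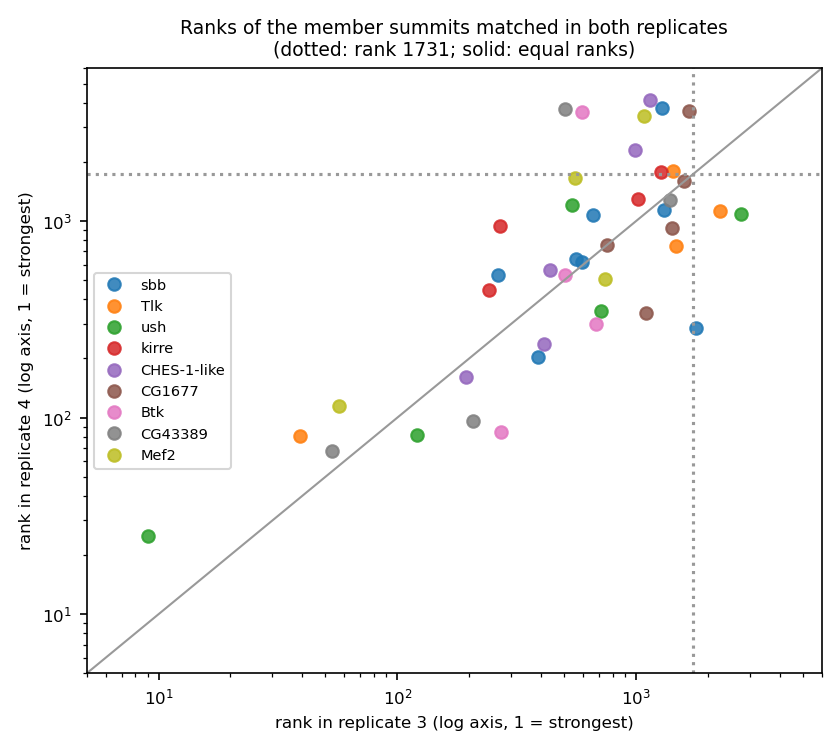
Rank of each of the 43 matched summits in replicate 3 (x axis) and replicate 4 (y axis), on log axes where 1 is the strongest, coloured by gene, with dotted lines at rank 1731. The strongest summits lie near the line of equal ranks, while summit 4 of CG43389 (502 and 3716) and summit 2 of Btk (592 and 3564) lie far above it.

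The counts per gene were taken again from each replicate alone, using its 1731 strongest regions. CG43389 held 4 summits in each replicate, and sbb held 7 in replicate 3 and 8 in replicate 4. The even counts were not made by the same summits throughout, since 3 of the 4 joint summits of CG43389 and 6 of the 8 of sbb ranked within 1731 in both replicates. Summit 4 of either gene fell outside in replicate 4, and summit 6 of sbb in replicate 3. The gene ush held 5 and 7, CG1677 7 and 5, Tlk 6 and 4, and Mef2 5 and 3. Btk held 6 and 3, and the widest differences were in kirre and CHES-1-like, which each held 7 and 3. All 9 held 4 or more in replicate 3, and 5 of the 9 did in replicate 4, where kirre, CHES-1-like, Btk and Mef2 held 3. With 2 replicates, no error can be put on such a count beyond these values.

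Below the threshold of the joint list, more summits lay in the same genes. The 5000 strongest regions of the pooled list held 98 summits in the 9 genes. That is 1.97% of its 4977 nuclear regions, a smaller share than the 2.75% of the joint list. The largest counts were 17 in CG1677, 16 in kirre and 14 each in sbb and ush. CG43389 and Mef2 gained 1 each and then held 5. The next region below the threshold ranked 1776 in CG1677, 1813 in Btk, 1861 in Tlk and 1889 in kirre, close to the last place kept at 1731. It ranked 2284 in sbb, 2306 in ush, 2414 in CG43389, 2825 in CHES-1-like and 3814 in Mef2.

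**Figure D5:**
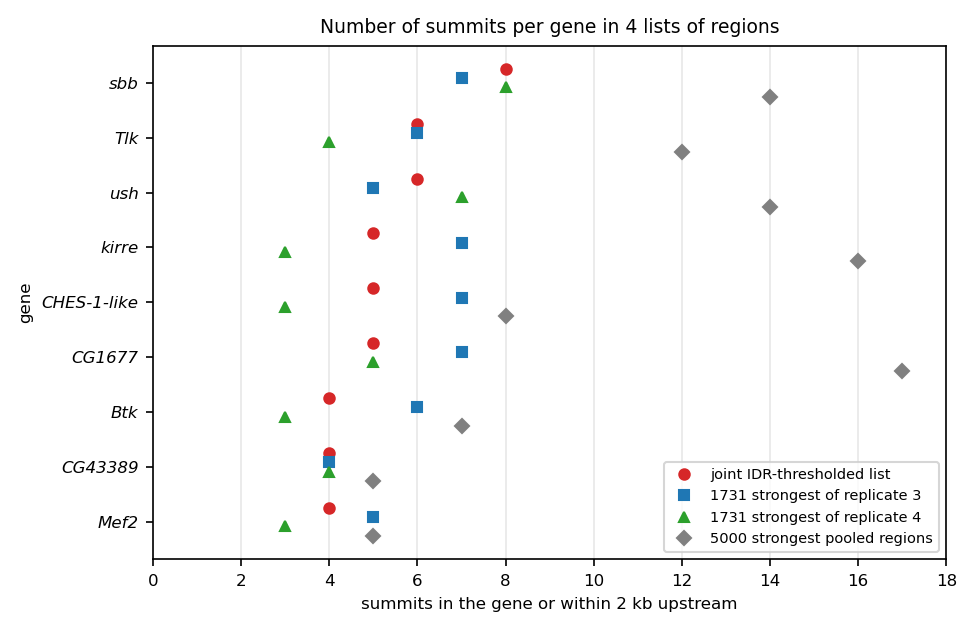
Summits per gene (x axis) in the joint list, in the 1731 strongest regions of replicate 3 and of replicate 4, and in the 5000 strongest pooled regions. Kirre and CHES-1-like have 7 in replicate 3 and 3 in replicate 4, CG43389 has 4 in each, and the pooled regions reach 17 in CG1677.

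Btk, CG43389 and Mef2 share their count of 4 with 14 other genes, EcR, Pgk, Raf, Svil, brwl, bun, ex, heca, l(2)k01209, ph-p, puc, simj, spi and tkv. Just outside were 45 genes with 3 summits, and 268 held 2. The 14 were shorter than the 9, with a median length of 21.7 kb against 64.3 kb. Of their 56 summits, 29 (51.8%, interval 38.0 to 65.3) were within 1 kb of a start site and 47 (83.9%) were matched in both replicates. Their median signal value was 100.8, and they shared 0 summits with the 9.

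Genes related to the members by function were counted in 8 lists, leaving out the members, and set beside the 15.0% of protein-coding genes with a summit and the 29.3% of those at least as long as CHES-1-like. Relatives of the corepressor sbb held summits in 5 of 9 genes (55.6%). They were Sin3A with 3, gro, which encodes Groucho, with 2, and Gug, Smr and ebi with 1 each, where Gug encodes Atrophin, a known partner of Brakeless. The strongest signal value among them was 183.0, at gro. Relatives of Btk, the cytoplasmic tyrosine kinases, held summits in 4 of 10 genes (40.0%), which were FER with 3, Csk with 2, and Src64B and Abl with 1 each. In both lists the share was above the share of long genes, with few genes in each. The lists were chosen with earlier results of these data known, so these shares are a description only.

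The other lists lay near or below the background. Of 16 other forkhead genes 3 (18.8%) held a summit, jumu with 2, which is known to act with CHES-1-like in the heart, and fkh (signal value 295.1) and FoxK with 1 each. Of 16 other muscle regulators 3 (18.8%) did, namely tin (152.6), sd (95.1) and nau (92.6). Of 13 other myoblast fusion genes 2 (15.4%) did, mbc and rols, and of 8 histone chaperone genes 1 (12.5%), Caf1-55. The GATA factor genes, whose products bind U-shaped, held a summit in 0 of 5, where a count of 0 allows up to 60.0%. Muscle structure genes held one in 0 of 16, which allows up to 18.8%. No gene of these 8 lists other than the members held 4 or more summits, among 92 such genes. Of all 13945 protein-coding genes only 23 (0.165%) held that many, the 9 members among them, so this count says little.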

How the data were processed

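Regions came from 4 deposited lists on dm6, 1 for each of replicates 3 and 4, 1 pooled and 1 thresholded by the irreproducible discovery rate procedure (the joint list). Per the deposited file descriptions, the pooled list comes from both replicates' alignments with 1 further file, and the joint list from the other 3. All 1731 regions of the joint list are the strongest 1731 of the pooled list. The pooled list and both replicate lists held 29999 regions each. The signal value deposited by the authors is never negative. Its normalisation, the aligner, the peak caller and the treatment of any control: not given in the sources used here. Without read counts in the files, depth is unknown. The 4 lists on dm3 were not used.

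Genes and start sites came from Ensembl release 115 without transposable elements, and sequence from RefSeq, both on release 6 (dm6), with positions counted from 1. Nuclear means the 6 chromosome arms, without the mitochondrial genome. Annotated mature microRNAs count as start sites but name no nearest gene. Density is summits divided by gene length plus 2 kb. A promoter summit lay within 1 kb of a start site, and a match within 100 bp. Intervals for shares are exact (Clopper-Pearson) at 95%. A count of 0 is given a limit of 3 divided by the number counted. That limit is an approximation, rough where few were counted, and is not comparable with the exact intervals. No test was made. The counting functions were checked on simulated data. Python 3.11.15, pandas 2.3.3, numpy 2.4.6 and scipy 1.17.1 were used.

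The members, gene lists and words were chosen with earlier results of these data known. Named are the members, genes whose start site is nearest to a summit of a member, genes with 4 summits, and listed relatives with a summit (at most 6 a list, by signal value); Pal1, which overlaps a summit, was named after its values were seen. In the lists, 2 symbols were matched through RefSeq synonyms. Alternatives were the strongest 25% of the joint list, the 5000 strongest pooled regions, each replicate alone, other gene windows, start site distances and match distances, and close summits counted once.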

Additional observations from a re-analysis of the deposited data

How the results depend on the processing

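The number of summits in the 9 genes was 14 in the strongest 25% of the joint list and 98 in the 5000 strongest pooled regions (1.97% of the nuclear ones), against 47 (2.75%), with densities of 0.162 and 1.13 per 10 kb against 0.543. In the strongest 25%, 0 members held 4 or more, 100% of the summits were matched in both replicates, and 7 of 14 were within 1 kb of a start site. These lists are shorter or longer by construction. With replicate 4 alone (without replicate 3) 40 summits and with replicate 3 alone 54 lay in the 9 genes, at 0.462 and 0.623 per 10 kb. The number of members with 4 or more summits was then 5 and 9. The share of summits within 1 kb of a start site was 19.1% when only the member's own start sites counted, against 36.2%. Under the other alternatives than the strongest 25% it ran from 25.5% to 40.0%. The share matched in both replicates was 78.7% within 50 bp, 97.9% within 200 bp and 66.0% among the strongest regions of each, against 91.5%. Without the 2 kb upstream, CG43389 and Mef2 held 2 summits each, and with summits within 500 bp counted once CG43389 held 2. Beyond the lengths of the lists, the cause of these moves was not tested. No paired analysis was possible because there is 1 group. The unknown depth means that no difference between the replicates can be set against counting error.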
